A study of Mus musculus with 2 samples.

Results

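The genes described here encode proteins that neutrophils store in their granules or hold in their cytosol: Elane, Mpo, Prtn3 and Ctsg of the primary (azurophil) granules, Ltf, Ngp, Camp and Lcn2 of the secondary (specific) granules, and S100a8 and S100a9. They were chosen by name, as the non-control probes on both arrays whose RefSeq accession belongs to 1 of these mouse genes. All 10 genes were found, on 11 probes, among 20654 genes named on the arrays. RNA was measured on 1 array of Dnmt3a knockout cells and 1 array of wild type cells (1-colour, Cy3). Both came from bone marrow of female C57BL/6 mice, whose adherent precursors, grown with macrophage colony-stimulating factor (M-CSF), were cultured further with M-CSF and RANKL to form osteoclasts, the multinucleated cells that resorb bone. Dnmt3a encodes a DNA methyltransferase that sets new methylation marks. The allele, the cells in which the gene was lost, the age of the mice and any pooling of mice are not given in the sources used here.

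Neutrophils make their granule proteins in waves as they mature in the bone marrow. Primary granules are filled at the promyelocyte stage with myeloperoxidase and serine proteases, and secondary granules are filled later with iron-binding and antimicrobial proteins under the transcription factor C/EBPε. S100A8 and S100A9 form calprotectin, a very abundant calcium-binding protein complex of the neutrophil cytosol that monocytes also make, so this pair is not a granule component in the strict sense and is given apart. Osteoclasts come from the neighbouring monocyte branch of the myeloid lineage, and the culture starts from whole bone marrow, which holds neutrophils and their precursors.

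Motif matches were found in the promoter windows of 9 of the 10 members, all but Camp. The windows of 5 of the 9 are shown as examples from each set, and they hold 9 of the 17 matches: the adjacent primary granule genes Elane and Prtn3, the secondary granule genes Ltf and Ngp, and S100a8. They are RefSeq windows on GRCm38.p6 and run from 250 bases before the annotated start to 50 bases from the start on, 300 bases in all, 5′ to 3′ on the gene's strand. Capitals mark matches to TATAAA (the TATA box), TTGCNNAA (a C/EBP motif) and GAGGAA (the core bound by PU.1, the product of Spi1), searched on both strands, so that a GAGGAA on the other strand reads TTCCTC. Of the 17 matches in the member windows, 0 overlapped another.
Elane, chr10:79886062-79886361, plus strand: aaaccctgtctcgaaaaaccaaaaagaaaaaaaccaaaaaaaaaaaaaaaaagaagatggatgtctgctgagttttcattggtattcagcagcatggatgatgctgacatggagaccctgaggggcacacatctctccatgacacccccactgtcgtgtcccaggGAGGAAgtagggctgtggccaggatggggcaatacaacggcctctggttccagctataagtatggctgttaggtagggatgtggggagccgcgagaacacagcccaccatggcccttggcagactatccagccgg
Prtn3, chr10:79879417-79879716, plus strand: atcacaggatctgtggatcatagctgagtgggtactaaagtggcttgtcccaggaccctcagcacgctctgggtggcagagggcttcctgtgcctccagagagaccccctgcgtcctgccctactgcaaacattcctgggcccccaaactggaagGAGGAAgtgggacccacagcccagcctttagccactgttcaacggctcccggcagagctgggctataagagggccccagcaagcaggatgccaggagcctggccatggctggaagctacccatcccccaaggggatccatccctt
Ltf, chr9:111019042-111019341, plus strand: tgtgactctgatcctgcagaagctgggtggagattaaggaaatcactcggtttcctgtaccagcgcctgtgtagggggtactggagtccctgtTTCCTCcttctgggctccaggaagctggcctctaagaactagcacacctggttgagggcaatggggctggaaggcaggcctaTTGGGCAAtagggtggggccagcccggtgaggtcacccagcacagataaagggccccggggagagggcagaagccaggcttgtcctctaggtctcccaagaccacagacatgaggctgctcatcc
Ngp, chr9:110419558-110419857, plus strand: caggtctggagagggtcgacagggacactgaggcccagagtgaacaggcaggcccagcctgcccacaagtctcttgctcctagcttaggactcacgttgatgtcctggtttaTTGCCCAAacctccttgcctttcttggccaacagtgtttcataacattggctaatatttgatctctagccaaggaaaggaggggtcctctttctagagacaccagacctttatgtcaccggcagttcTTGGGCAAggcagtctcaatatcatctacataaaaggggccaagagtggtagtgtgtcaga
S100a8, chr3:90668821-90669120, plus strand: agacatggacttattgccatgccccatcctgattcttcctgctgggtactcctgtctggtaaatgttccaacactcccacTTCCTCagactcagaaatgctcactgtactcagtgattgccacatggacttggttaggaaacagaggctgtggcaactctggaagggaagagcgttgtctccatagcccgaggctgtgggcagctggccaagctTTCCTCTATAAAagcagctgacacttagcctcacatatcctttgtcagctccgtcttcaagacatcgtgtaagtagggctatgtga

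All 10 members had a window in the table. GAGGAA was present in the windows of 7 of the 10, against 28.3% of 32841 windows of all genes, and it began 85 bases before the start of Elane and 95 bases before that of Prtn3. TTGCNNAA was present in 4 of the 10 (Ltf, Ngp, Lcn2 and S100a9), against 10.8% of all windows, with 2 matches in Ngp. TATAAA was present in 3 of the 10, against 13.6% of all windows. It stood 30 bases before the start in S100a8, at the start base itself in S100a9 and 237 bases before it on the other strand in Ctsg. The member windows held between 2 and 8 CpG dinucleotides, the sequence on which Dnmt3a acts, with a median of 3.5, against a median of 7 over all windows (quartiles 3 and 20). The windows of 9 members lay below that median, and Ctsg, with 8, did not. These are counts of letters in a short window, and neither binding nor methylation was measured here.

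The 10 members were measured above background on both arrays, as were 13479 of all 20654 genes. All 10 had a higher scaled signal on the knockout than on the wild type array, by 1.11-fold to 1.48-fold. Of all genes measured on both arrays, 51.9% were higher. Scaling to the spike-in probes left 2 of the 10 members above 0, against 7.54% of all measured genes. Unless another scaling is named, a difference is the log2 of the processed signal after each array was divided by its own 75th percentile, knockout minus wild type, and 1 gene is represented by its brightest probe. The standard error (SE) given with a difference combines, on the log2 scale, the error that the scanner software assigned to the spots on each array. It describes how well a spot was read and says nothing of differences among mice or cultures. With 1 array per genotype no test over samples was possible and no p-value is given. In RNA of a whole culture, more cells of a type and more RNA per cell cannot be told apart.

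Of 59305 spots that were not controls, 59.7% were well above background on the knockout array and 52.7% on the wild type array, and none was saturated. The number of arrays limits the precision of every value. The targeted gene Dnmt3a gave a signal of 1822 on the knockout array, against 7042 on the wild type array (difference -1.92, SE 0.20), from its only probe, whose position relative to the deleted part is not known. The 13 osteoclast markers examined, among them Acp5 and Ctsk, were above background on both arrays, as were 13479 of all 20654 genes. Over 13479 genes measured on both arrays the median difference was 0.01 and the SD 0.37. Of these genes 51.9% lay above 0, 15.8% were at least 25% higher and 0.824% at least 2-fold higher on the knockout array.

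Among the primary granule genes, Mpo, which encodes the peroxidase that makes hypochlorous acid, had a processed signal of 4796 on the knockout array, against 3313 on the wild type array. Its scaled difference was 0.56 (1.48-fold, SE 0.20), the largest of the 10. Elane, neutrophil elastase, had a signal of 11447 on the knockout array, against 10511 on the wild type array. Its difference of 0.15 (1.11-fold, SE 0.20) was the smallest and the only one within its own scanner error. Ctsg encodes cathepsin G, a further serine protease of these granules. It had a signal of 1794 on the knockout array, against 1352 on the wild type array, a difference of 0.44 (SE 0.20). Prtn3, proteinase 3, had a signal of 223 on the knockout array, against 173 on the wild type array, a difference of 0.39 (SE 0.21). The Prtn3 probe lies nearest to background, and the median brightness of its spot was 6.69 times the local background on the knockout array, against 5.44 times on the wild type array. The value of Prtn3 depended on the background correction, at 0.19 with normexp and 0.23 without background subtraction, so that it was no longer at least 25% higher. The 4 primary granule genes had a median of 0.42, and 3 of them were at least 25% higher, against 15.8% of all measured genes. With normexp their median was 0.31 and 2 of 4 were at least 25% higher, against 12.5% of all genes.

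Among the secondary granule genes, Ltf encodes lactoferrin, which binds iron. It had a signal of 9625 on the knockout array, against 6733 on the wild type array, a difference of 0.55 (1.46-fold, SE 0.20). Lcn2 encodes lipocalin 2, which captures bacterial siderophores. It had a signal of 5357 on the knockout array, against 3877 on the wild type array, a difference of 0.50 (SE 0.20). Ngp, neutrophilic granule protein, is related in sequence to the cathelicidins and the cystatins. It had a signal of 3990.2 on the knockout array, against 3006 on the wild type array, a difference of 0.44 (SE 0.20). Camp encodes the cathelicidin precursor, from which the antimicrobial peptide CRAMP is cut, and it is the only member with 2 probes. The brighter probe gave 14406 on the knockout array, against 11445.5 on the wild type array, a difference of 0.36 (SE 0.20). The other gave 6283 on the knockout array, against 5233 on the wild type array, a difference of 0.29 (SE 0.20), so the 2 probes differed by less than their scanner error. All 4 secondary granule genes were at least 25% higher by their brightest probe, against 15.8% of all measured genes, with a median of 0.47. The other Camp probe, at 1.23-fold, was not at least 25% higher.

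The calprotectin genes lie next to each other on chromosome 3. S100a8 had a signal of 38838 on the knockout array, against 28157 on the wild type array, a difference of 0.49 (1.41-fold, SE 0.20). S100a9 had a signal of 105812 on the knockout array, against 83213 on the wild type array, a difference of 0.38 (1.30-fold, SE 0.20). The gap between the partners was smaller than the error of either. Each of the 11 member probes is a single spot, and none was marked by the scanner software as uneven or as an outlier.

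**Figure D1:**
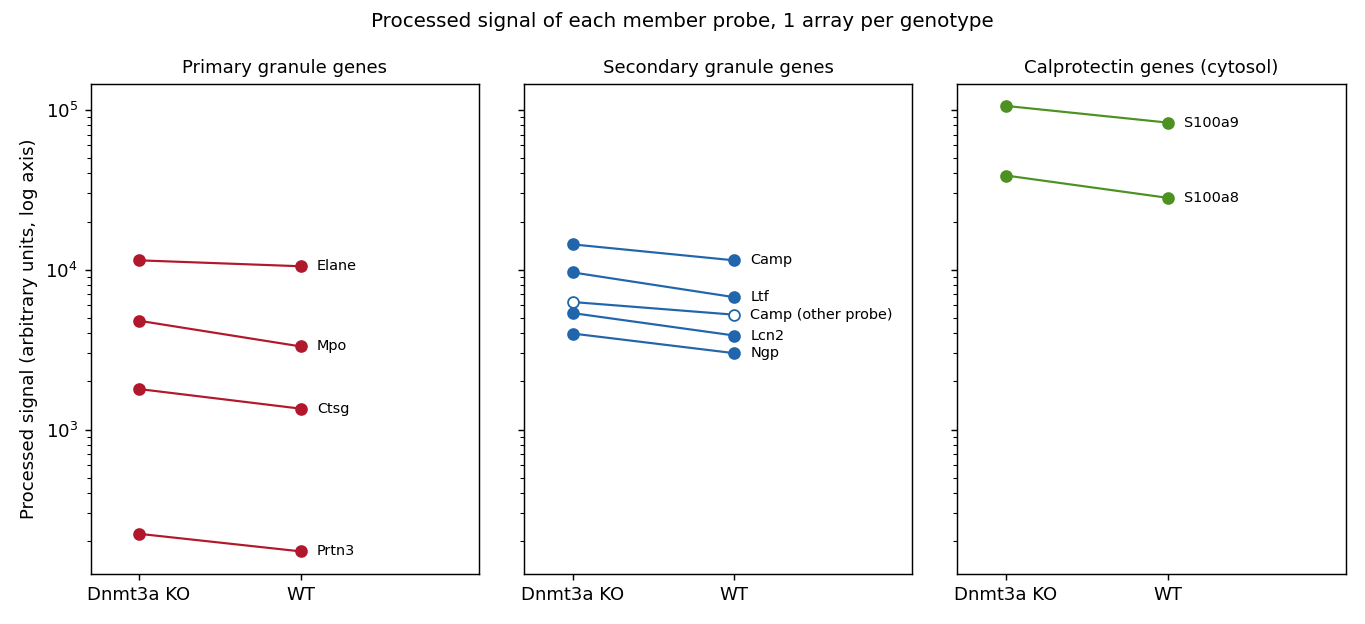
Processed signal (arbitrary units, log axis) of the 11 member probes, with the Dnmt3a knockout array at the left and the wild type array at the right of each panel. Each line is a probe, an open symbol marks the second Camp probe, and every line is higher at the knockout end, from 1.09-fold for Elane to 1.45-fold for Mpo before scaling. With spike-in scaling 8 of the 10 genes lie below 0. Heights of different probes cannot be compared.

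Over the 10 members the median difference was 0.44 (1.35-fold), against 0.01 over all 13479 measured genes. No member reached 2-fold, and 9 of 10 were at least 25% higher by their brightest probe, against the 15.8% of all genes given above. That count was 8 with quantile normalization (without S100a9), 8 with either other background correction (without Prtn3), 7 after subtraction of the local median (without Prtn3 and Camp) and 0 with spike-in scaling. Likewise 9 of 10 were higher by more than their scanner error, against 24% of all genes. Among the 6740 genes at or above the median level, which include 9 of the members, 52.9% lay above 0 and 14.1% were at least 25% higher. The SD of the difference over the members was 0.12, against 0.37 over all genes and 0.30 over those at or above the median level. Of all measured genes, 6.37% had a difference at least as high as that of Mpo, 8.41% as that of S100a8 and 30.2% as that of Elane. Single members therefore lie well within the range of many other genes.

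**Figure D2:**
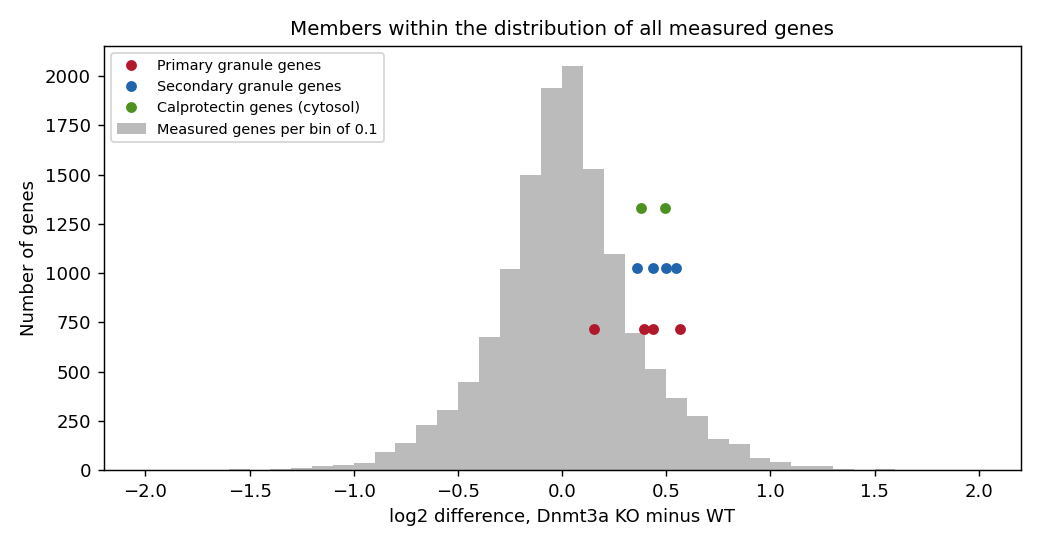
Histogram of the log2 difference (knockout minus wild type, 75th percentile scaling) of genes measured on both arrays, in bins of 0.1, with the number of genes on the vertical axis. The axis spans -2 to 2, and 24 genes lie outside it. The coloured points mark the members at their difference, between 0.15 and 0.56, at arbitrary heights, and under spike-in scaling the histogram and the members both move down by 0.52.

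Of the 45 pairs of members, 4 differed by more than 1 carried scanner error and 0 by more than 2. In all 4 pairs Elane had the lower difference, and its gap was 0.41 to Mpo, 0.39 to Ltf, 0.34 to Lcn2 and 0.34 to S100a8, each with an error of 0.29. The primary and secondary granule genes overlapped, with differences of 0.15 to 0.56 in the primary and 0.36 to 0.55 in the secondary granule genes. The software's error is wide beside the repeated spots of 259 other probes, whose differences had a median SD of 0.07, so the members are not shown to have equal differences. The spots lie apart on the array, 2 of them (Mpo and Ngp) in the upper part of the array (rows 115 and 80). The median difference of detected spots within 10 rows and 10 columns of each member ran from 0.01 to 0.11.

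**Figure D3:**
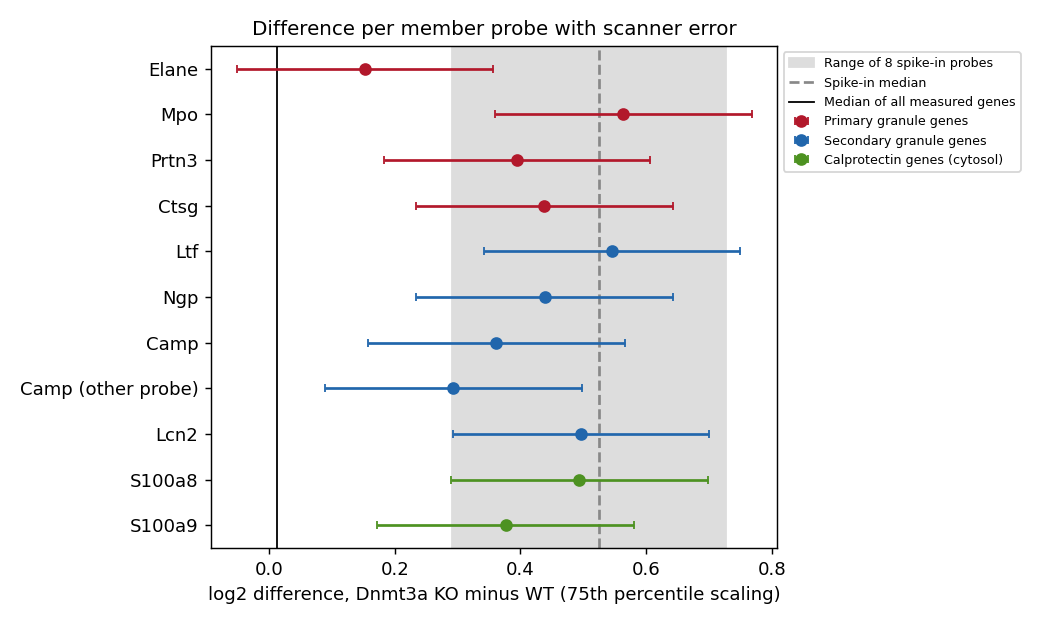
The log2 difference (knockout minus wild type, 75th percentile scaling) of each member probe with a bar of 1 scanner error each way. Points lie between 0.15 and 0.56, to the right of the median of all genes (black line, 0.01). The grey band is the range of 8 spike-in probes on the same scale (0.29 to 0.73) with their median dashed (0.52), and scaling to that median puts 8 of the 10 genes below 0.

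The direction rests on the scaling. After 75th percentile scaling the 8 spike-in probes above background, RNA added in known amounts, were themselves higher on the knockout array by a median of 0.52, between 0.29 and 0.73. Relative to their median the members ran from -0.37 for Elane to 0.04 for Mpo, and 2 of 10 (Mpo and Ltf) stayed above 0. The median of all measured genes was then -0.51, and 7.54% of genes lay above 0. The distance of the members' median from that of all genes, 0.42, is the same under both by construction, since the 2 scalings differ by 1 constant for every gene. The members were higher relative to the bulk of the transcripts, while their change relative to the spike-in RNA was within the range of those probes for 9 of the 10.

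**Figure D4:**
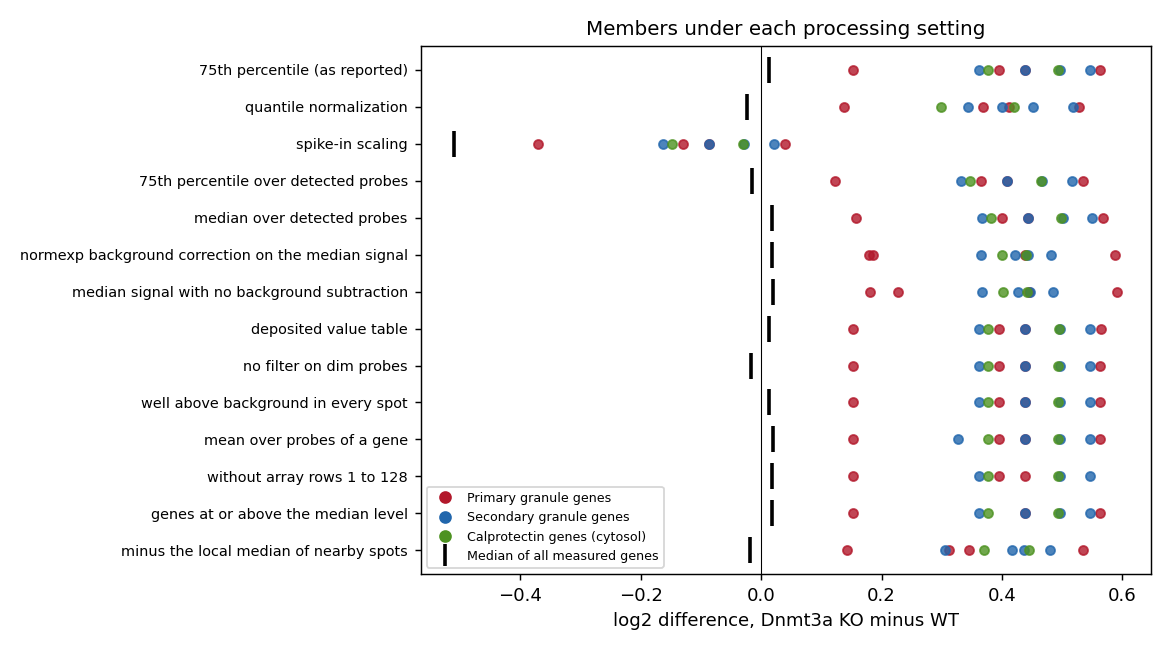
The log2 difference (knockout minus wild type) of each member (coloured points) and the median of all measured genes (black bar) under the reported setting and 13 alternatives. The members lie right of 0 under every setting except spike-in scaling, where 2 do, and right of the median of all genes under each.

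RNA of the genes whose proteins activate and hold the primary granule proteases was measured too. Ctsc, the dipeptidyl peptidase that trims elastase, cathepsin G and proteinase 3 to their active form, gave 7309 on the knockout array, against 5035 on the wild type array (difference 0.57, SE 0.20). Srgn, serglycin, the proteoglycan that packs them in the granule, gave 9999 on the knockout array, against 6997 on the wild type array (difference 0.54, SE 0.20). With spike-in scaling their differences were 0.04 and 0.02. Of 8 measured inhibitors of granule and lysosomal proteases, 6 were at least 25% higher with 75th percentile scaling, against 15.8% of all genes. On the knockout array 0 were at least 20% lower, against 13.8% of all genes, and the median of the 8 was 0.47. The stefins Stfa1 (0.70) and Stfa3 (0.59), which inhibit cysteine proteases and have near-identical copies in the genome, were highest. Cystatin B (Cstb, -0.12) and the elastase inhibitor Serpinb1a (0.26) were lowest.

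Other granule genes did not all share the members' direction. Of 14 measured genes of the secondary and tertiary granules, 7 were at least 25% higher, against 15.8% of all genes. A further 2 were at least 20% lower, against 13.8% of all genes. The median of the 14 was 0.30 and became negative with spike-in scaling. Mmp8, neutrophil collagenase, was highest, with a signal of 7075 on the knockout array, against 3408 on the wild type array (difference 1.08, SE 0.20). It was followed by Cybb, the catalytic chain of the phagocyte NADPH oxidase (0.64). The pentraxin Ptx3 (-0.60) and the gelatinase Mmp9 (-0.58, SE 0.06), which osteoclasts also make in large amounts, were lowest. Mmp9 averaged 81361 over its repeated spots on the knockout array, against 124562 on the wild type array. Of 5 other primary granule genes, 4 were measured on each array (median 0.04). Lyz2, lysozyme of macrophages and neutrophils, was at 0.86 and its near-identical copy Lyz1 at 0.16, the tetraspanin Cd63 at -0.08, and Bpi, which binds lipopolysaccharide, at -0.63 with a second probe at -0.30. Prss57, a further serine protease of these granules, was above background on the knockout array only, with a signal of 27.4 there, and at least 1.08-fold higher.

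Of the transcription factors that drive granule genes, 11 were examined. The 4 C/EBP factors were all at least 25% higher with 75th percentile scaling, but with spike-in scaling Cebpa and Cebpb were just below 0. Cebpe, needed for the secondary granule genes, gave 2237 on the knockout array, against 1474 on the wild type array (difference 0.63, SE 0.20). Cebpd was at 0.58, Cebpb at 0.52 and Cebpa, the factor that starts granulocyte differentiation, at 0.51. Gfi1, a repressor needed for neutrophil maturation, was at 0.34 (SE 0.23, a dim probe). Spi1, which encodes PU.1, gave 1884 on the knockout array, against 2042 on the wild type array (difference -0.09, SE 0.20). Runx1 (0.17), its partner Cbfb (0.05), Myb (0.01), Klf5 (-0.09) and Lef1 (-0.12) also differed by less than their scanner error. Over the 11 factors the median was 0.17, 5 were at least 25% higher and 0 at least 20% lower. The shares over all measured genes were 15.8% and 13.8%.

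Receptors through which the released proteins act were mostly on the positive side with 75th percentile scaling. Of 8 measured, 5 were at least 25% higher, against 15.8% of all genes, and 0 at least 20% lower, against 13.8%. The lipopolysaccharide co-receptor Cd14 was at 0.69 and Fpr2, the formyl peptide receptor that binds cathelicidin, at 0.65. Tlr4, a receptor of calprotectin, was at 0.39 (SE 0.14, 2 spots), its partner Ly96 at 0.09, the scavenger receptor Cd36 at 0.07, and Slc22a17, a receptor of lipocalin 2, at -0.16. Ager, the further calprotectin receptor RAGE, was above background on the knockout array only, at a signal of 21.5, under the lowest level detected on the wild type array, so no fold is given. Of 9 other S100 genes measured on each array 0 were at least 25% higher and 0 at least 20% lower by their brightest probe, with a median of -0.02. The lowest were S100a3 (-0.26) and S100a10 (-0.21), and the highest were S100a13 (0.31) and S100a1 (0.25, a second probe 0.16). S100a16 was at -0.02, but its second probe gave 443 on the knockout array, against 660 on the wild type array (difference -0.55, SE 0.20). The 2 probes of S100a4 gave 0.04 and 0.03, and S100a6, which lies within 3 genes of S100a8, was at 0.15. S100a14 and S100b are not among the 9, since in wild type cells neither was well above background. Their knockout signals were at least 3.76-fold higher for S100a14 and at least 1.03-fold higher for S100b. Ager, S100a14 and S100b are among 1131 of 20654 genes above background on the knockout array only, against 178 on the wild type array only. S100a8 and S100a9 were not tested against the rest of the family.

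The genome holds several members side by side. Prtn3 and Elane are neighbours on chromosome 10, as are S100a8 and S100a9 on chromosome 3, and Camp, Ngp and Ltf lie on 1 stretch of chromosome 9, with 18 genes between Camp and Ngp and 25 between Ngp and Ltf in the RefSeq gene order. The 3 genes on each side of every member comprise 48 genes that are no members, of which 23 were measured on both arrays. Their median was -0.01, with 11 above 0 and 12 below, and 3 were at least 25% higher. The shares over all measured genes were 51.9% above 0 and 15.8% at least 25% higher. Lpo, the lactoperoxidase gene beside Mpo, gave 288 on the knockout array, against 298 on the wild type array (difference -0.02, SE 0.21). Cfd, the complement factor D gene near Elane, was at 0.32 (SE 0.31), and Med16 at 0.02. The granzyme gene Gzme (-0.65, a second probe -0.64), which has near-identical copies, and the basophil protease gene Mcpt8 (-0.32) near Ctsg were lower. Near Lcn2, 1110008P14Rik (-0.47), Ptges2 (-0.32) and Slc25a25 (-0.26 by its brightest probe) were lower too. Pglyrp4, near S100a8 and S100a9, gave 4.61 on the knockout array, against 56.8 on the wild type array, and did not count as measured on both. The 3 neighbours at least 25% higher were Plppr3 (0.50, a second probe 0.00), Ccrl2 (0.49) and Kif9 (2.20), whose other 3 probes gave 0.82, 0.26 and -0.30.

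**Figure D5:**
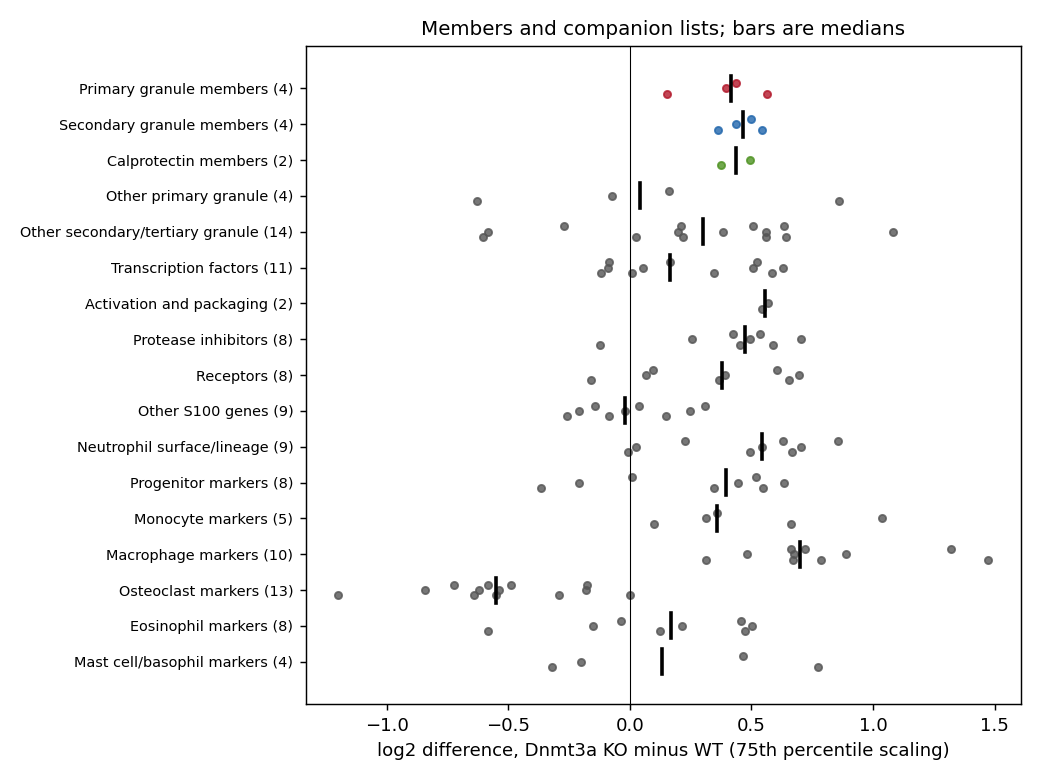
The log2 difference (knockout minus wild type, 75th percentile scaling) of each gene measured on both arrays, by list, with the number of genes in brackets and the median as a black bar. The members lie between 0.15 and 0.56, the macrophage markers between 0.31 and 1.47 and the osteoclast markers between -1.20 and -0.00. With spike-in scaling every point moves down by 0.52.

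Markers of several cell types moved with the members, and their part in the members' difference was not tested. Of all measured genes 51.9% lay above 0, 15.8% were at least 25% higher and 13.8% at least 20% lower. The summed signals of a list weigh its brightest probes most, and heights of different probes cannot be compared. Of 9 measured genes of the neutrophil surface and lineage 8 lay above 0 and 6 were at least 25% higher, with a median of 0.54 that is 0.02 with spike-in scaling. All 9 listed genes with a matched probe were measured on both arrays, against 13479 of all 20654 genes. The scaled signals of the 9 summed to 149 on the knockout array, against 143 on the wild type array, a sum dominated by Csf3r. Without Csf3r they summed to 14.4 on the knockout array, against 10.6 on the wild type array. Padi4, which citrullinates histones, was at 0.86, Retnlg at 0.70 and the chemokine receptor Cxcr2 at 0.54, while the granulocyte colony-stimulating factor receptor Csf3r (76813 on the knockout array, against 77107 on the wild type array) was at 0.02 and Fpr1 at -0.01. Ly6g had no matched probe. Of 8 progenitor markers 5 were at least 25% higher and 1 at least 20% lower (median 0.39, and -0.13 with spike-in scaling). Sox4 (-0.36, a second probe 0.43) and Gata2 (-0.21) were lowest and Flt3 (0.63) and Kit (0.55) highest. Several of these probes were dim. Kit gave 51.5 on the knockout array, against 36.0 on the wild type array, where the lowest signal detected was 25.8. The summed scaled signals of the progenitor markers were 2.07 on the knockout array, against 1.82 on the wild type array. The 5 monocyte markers measured all lay above 0 with 75th percentile scaling (median 0.36, and -0.17 with spike-in scaling). F13a1 was at 1.04, Ccr2 at 0.66, Cx3cr1 at 0.36, Vcan at 0.31 and Csf1r at 0.10. Dimmer probes above background on both arrays gave 0.35 and 0.50 for Csf1r, 1.30 for F13a1, 0.38 for Cx3cr1 and 0.44 for Vcan. By their brightest probes the 5 markers summed to 609 on the knockout array, against 558 on the wild type array, mostly from Csf1r. Without it they summed to 26.3 on the knockout array, against 14.3 on the wild type array. Of 10 measured macrophage markers 9 were at least 25% higher and all lay above 0 (median 0.70, and 0.18 with spike-in scaling), summing to 377 on the knockout array, against 228 on the wild type array. Without Adgre1, the brightest, the macrophage sums were 275 on the knockout array, against 164 on the wild type array. Marco (1.47) and Vsig4 (1.32) were highest and Msr1 (0.31) and Mertk (0.48) lowest. Cd163, a further macrophage marker, was not above background on either array. The 13 osteoclast markers all lay below 0, against 48.1% of all genes, and 9 were at least 20% lower, against 13.8% of all genes (median -0.55), summing to 1764 on the knockout array, against 2030.0 on the wild type array. Without Acp5, the brightest, the osteoclast sums were 990 on the knockout array, against 1256 on the wild type array. Tnfrsf11a (-1.20) and Calcr (-0.84) were lowest, and Acp5 (-0.00) and Clcn7 (-0.18) were nearest to 0.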

How the data were processed

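The deposited scanner files give an intensity per spot that Agilent Feature Extraction 10.10.1.1 had background-subtracted and detrended over each array, per the file headers, and arrays were not normalized to each other. The submitters' processing notes name version 9.1, and which version applies was not settled. The deposited value table holds the same intensity times about 1.54 on the knockout and 1.55 on the wild type array and served as an alternative. Its column medians were 66.5 for the knockout and 59.6 for the wild type array, and the origin of that factor is unknown. Per the file headers, both arrays were on 1 slide and scanned together.

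From the deposited intensity, each array was divided by its 75th percentile over 59305 non-control spots and log2 was taken. Uneven or outlier spots on either array (172 on the knockout and 157 on the wild type array) were left out, and spots of a probe were averaged, giving 55649 probes. Accessions were matched to a RefSeq table of GRCm38.p6, used for names and gene order only. The files' probe positions are on another build. A gene counted as measured when its brightest probe was well above background on both arrays in most of its spots (13479 genes). Where only 1 array showed a gene above background, the fold bound divides its scaled signal by the dim probe's own signal or by the lowest signal detected on the dim array, whichever is higher. Genes named from the companion lists are the 2 highest and 2 lowest measured members of a list, all in lists of up to 6, and genes with a stated role. The last choice, S100a14 and the 3 promoter motifs were made after the values were seen. The members and lists were chosen with earlier results of these data known.

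The scaling and averaging were tested on simulated data with known differences. The simulation shifted few genes, in both directions, so it could not test a shift of most genes relative to the spike-in probes. The alternatives were 5 other scalings or value sources, 2 background corrections, 5 filters or probe choices and, added later, the local median. Files without a mean signal column led to use of the median signal in the background corrections. Python 3.11.15, numpy 2.4.6, pandas 2.3.3, R 4.3.3 and limma 3.58.1 were used.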

Additional observations from a re-analysis of the deposited data

How the results depend on the processing

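Of 13 alternative settings, 12 left all measured members above 0, with a median between 0.39 and 0.44 and no single member under 0.12. These covered quantile normalization, other percentiles, both background corrections, the deposited table, the filters, the mean over probes, the array without its upper part (8 members) and the local median of nearby spots, which was chosen after seeing the data. Several could hardly move a member. The filters left the values of the members they kept unchanged, the mean over probes altered only Camp, and the deposited table holds the same intensity times a factor. All 12 also scale the arrays by the bulk of their probes. The number of settings is therefore no measure of how firm the direction is. The count of members at least 25% higher was between 7 and 9 over the 10 of these settings that keep all 10 members, with lost calls for Prtn3, Camp or S100a9. It was 7 of 8 without the upper part and 8 of 9 where only the brighter genes were kept. Spike-in scaling was the exception to the direction. With it the median of the members was -0.0862, that of the primary granule genes -0.11, of the secondary granule genes -0.0569 and of the calprotectin genes -0.0891. With it 2 members lay above 0 and 0 were at least 25% higher. Its single values were -0.37 for Elane, -0.13 for Prtn3, -0.0864 for Ctsg, -0.0860 for Ngp, -0.16 for Camp, -0.0278 for Lcn2, -0.0304 for S100a8 and -0.15 for S100a9. This follows from its construction, since it lowers every difference by 0.52. The distance of the members' median from that of all measured genes stayed between 0.40 and 0.46 over all 13 settings. A scaling that moves every gene by the same amount cannot change this distance. No member was at least 2-fold higher under any of them. No paired analysis was possible because each genotype has 1 array and the labels give no replicate numbers, and no replicate could be left out. Among the members, Prtn3 has the lowest signal over background.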

Other observations

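Granulocytes other than neutrophils had markers on both sides of 0. Of 8 eosinophil markers measured, 3 were at least 25% higher on the knockout array, against 15.8% of all genes. At least 20% lower was 1 marker, against 13.8% of all genes. The median of the 8 was 0.17, and -0.36 with spike-in scaling. The granule protein genes Prg2 (0.21) and Prg3 (0.50) and the eosinophil ribonuclease genes Ear1 (0.47) and Ear2 (0.46), which have close copies in the genome, were positive, whereas the further ribonuclease gene Ear6 was at -0.15, the interleukin receptor gene Il5ra at -0.04 and the eotaxin receptor Ccr3 at -0.58. Siglecf was at 0.12. Epx, eosinophil peroxidase, was not above background on either array. Of the mast cell and basophil markers 4 of 8 were measured, against 13479 of all 20654 genes. Prss34 at 0.77 and Hdc at 0.46 were at the high end, and Mcpt8 at -0.32 and Tpsb2 at -0.20 at the low end.

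S100a14, a member of the S100 family that is chiefly epithelial, had a signal of 95.1 on the knockout array, against 5.94 on the wild type array, where it was not well above background. The knockout signal was at least 3.76-fold higher by the bound. The gene was picked after its value was seen, it rests on 1 spot, and that spot lies in row 43.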
